A study of Bos taurus with 86 samples.

Results

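Solute carriers are the membrane proteins that move amino acids, sugars, ions, metals, vitamins and metabolites across the plasma membrane and across the membranes of organelles. They were taken here as the rows of a bovine cDNA array whose single gene symbol in the platform's annotation begins with SLC and a digit, with SLC2A1 left out. That gave 66 genes in 168 rows (84 clones), of 4452 named genes in 11196 rows. Of the 66 genes, 47 were measured often enough to be tested, of 3433 named genes for the whole array. Grouped by substrate and family, the tested genes were 11 of 11 carriers of amino acids and peptides, 15 of 22 of ions and metals, 6 of 10 of the mitochondrial carrier family SLC25, 7 of 12 of other organic molecules, and 8 of 11 of sugars and nucleotide sugars.

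The samples were 43 single cattle embryos, labelled AI (14), IVD (14) or IVF (15). By common usage AI stands for artificial insemination and IVF for fertilization in vitro. What IVD stands for is not spelled out, so it serves as a bare name, and the sources used here do not give breed, sire, stage or culture medium. Each embryo was hybridised on 2 arrays against a common reference RNA, with the dyes exchanged. Linear amplification, by the labels' protocols, took 3 rounds for embryos of all groups and 2 for the reference. IVD embryos 12_1 to 12_4 share the start of their number and may share an origin, in which case p-values with IVD rest on fewer independent embryos than 14.

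Transport in a preimplantation embryo works in layers. Sodium-coupled and exchange carriers in the outer cells take up amino acids and vitamins, and facilitative carriers take up sugars such as glucose. Pumps such as the sodium-potassium ATPase keep up the gradients that drive the sodium-coupled carriers. Organelle carriers pass substrates into mitochondria, lysosomes, the Golgi and the endoplasmic reticulum. Several carriers work only with a partner, such as the heavy chain SLC3A2 that carries light chains of the SLC7 family to the surface.

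All levels below are log2 ratios of embryo over reference, averaged over an embryo's 2 arrays after each array was centred on its median. Differences are between group means on that scale, with the standard error and limma's Benjamini-Hochberg adjusted p over all 6278 features. The threshold was 0.05. The labels do not say which dye is the numerator. Embryo over reference is likely, since 9 of 10 measured trophectoderm markers in AI, and 10 of 10 in IVD and IVF, lay above 0; with the opposite direction every sign would turn. Group sizes are 14, 14 and 15 unless a smaller number is given. An array of a whole embryo cannot tell fewer cells of a type from less RNA per cell.

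The groups differed in technical measures as well. Dye-swapped arrays correlated at 0.589 to 0.767 within IVD embryos, against 0.816 to 0.912 for AI and 0.717 to 0.911 for IVF. An IVD embryo lacked a value in 1001.5 to 1871.5 rows (mean of its 2 arrays), an AI embryo in 3613 to 5713 and an IVF embryo in 3076.5 to 5099.5. The spread of ratios over rows was alike, with a median SD of 1.29 in AI, 1.34 in IVD and 1.25 in IVF. Among markers of cell types, the median ratio of the trophectoderm list over its 10 measured genes of 13 ran from 1.93 to 3.07 over AI embryos, 1.46 to 3.26 over IVD embryos and 1.60 to 2.77 over IVF embryos. Single markers of that list differed both ways. For IVD minus AI, TFAP2C gave 1.04 (limma adjusted p = 2.83e-06) and KRT8 -0.81 (adjusted p = 1.46e-05). None of the 3 inner cell mass, 4 primitive endoderm and 7 oocyte markers was kept, nor were 7 of 10 cumulus markers, 7 of 8 blood markers and 6 of 7 oviduct and endometrium markers. The 3 kept cumulus markers had median ratios of -0.53 to 0.12 over AI embryos, -0.33 to 0.28 over IVD embryos and -0.26 to 0.21 over IVF embryos. Of these, CYP11A1 was higher than in AI by 0.40 in IVD and 0.41 in IVF (limma adjusted p = 0.00195 and 0.00226). CYP19A1 was higher in IVF alone (0.28, adjusted p = 0.00881), and TNFAIP6 passed in neither. CD14, the blood marker kept, had means of -0.26, -0.22 and -0.08 in AI, IVD and IVF, and SPP1, of the oviduct and endometrium list, -2.75, -3.57 and -2.59. The part of cell types in the results below was not tested.

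Solute carrier genes differed among the groups about as often as other features. By the F-test over the 3 means 30 of 47 differed, against 67.1% of all features. Between IVF and AI, 20 of 47 passed (42.6%), 9 higher and 11 lower in IVF, against 37.7% of all features, 19.9% higher and 17.7% lower. Between IVD and AI, 21 of 47 passed (44.7%), 7 higher and 14 lower in IVD, against 46.5%, 25.5% higher and 21% lower. Between IVF and IVD, 19 of 47 passed (40.4%), 10 higher and 9 lower in IVF, against 47.6%, 22.3% higher and 25.2% lower. These comparisons share embryos, so they are not independent of each other. Median differences of the 47 genes were -0.10, -0.05 and 0.08, against 0.04, 0.06 and -0.01 for all features. Ranges of embryos did not overlap for 0, 1 and 1 of the 47 genes, SLC4A9 in both cases, against 0.542%, 2.84% and 3.28% of all features.

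Centring and dye bias limit these counts. With the deposited values uncentred, the median of all features moved to 0.32 for IVD minus AI and -0.27 for IVF minus IVD, so that 12 solute carrier genes were higher and 4 lower in IVD than in AI, and 3 higher and 14 lower in IVF than in IVD (of all calls, 85.3% and 17.5% were higher, against 54.9% and 47% after centring). Of the centred calls, 11 of 20 passed without centring for IVF minus AI, 11 of 21 for IVD minus AI and 12 of 19 for IVF minus IVD. For IVF and AI, the mean of an embryo's 2 deposited ratios before any sign was turned, which measures dye bias, placed 13 AI, all 14 IVD and 2 IVF embryos in one cluster, 1 AI and 11 IVF embryos in another, and 2 IVF embryos in the last. With that cluster as a block, run for IVF minus AI alone, SLC1A3 alone passed and standard errors were 1.73 times as large. Of the 20 differences between IVF and AI, 19 kept their sign, and their size was 1.02 times as large at the median. The 20 were picked on these same embryos, so kept signs are no separate support. Their sizes ran from -0.05 to 1.59 times the main value, and 5 changed by more than 1.5 times. Only 1 AI and 2 IVF embryos shared a cluster with most embryos of the other group.

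**Figure D1:**
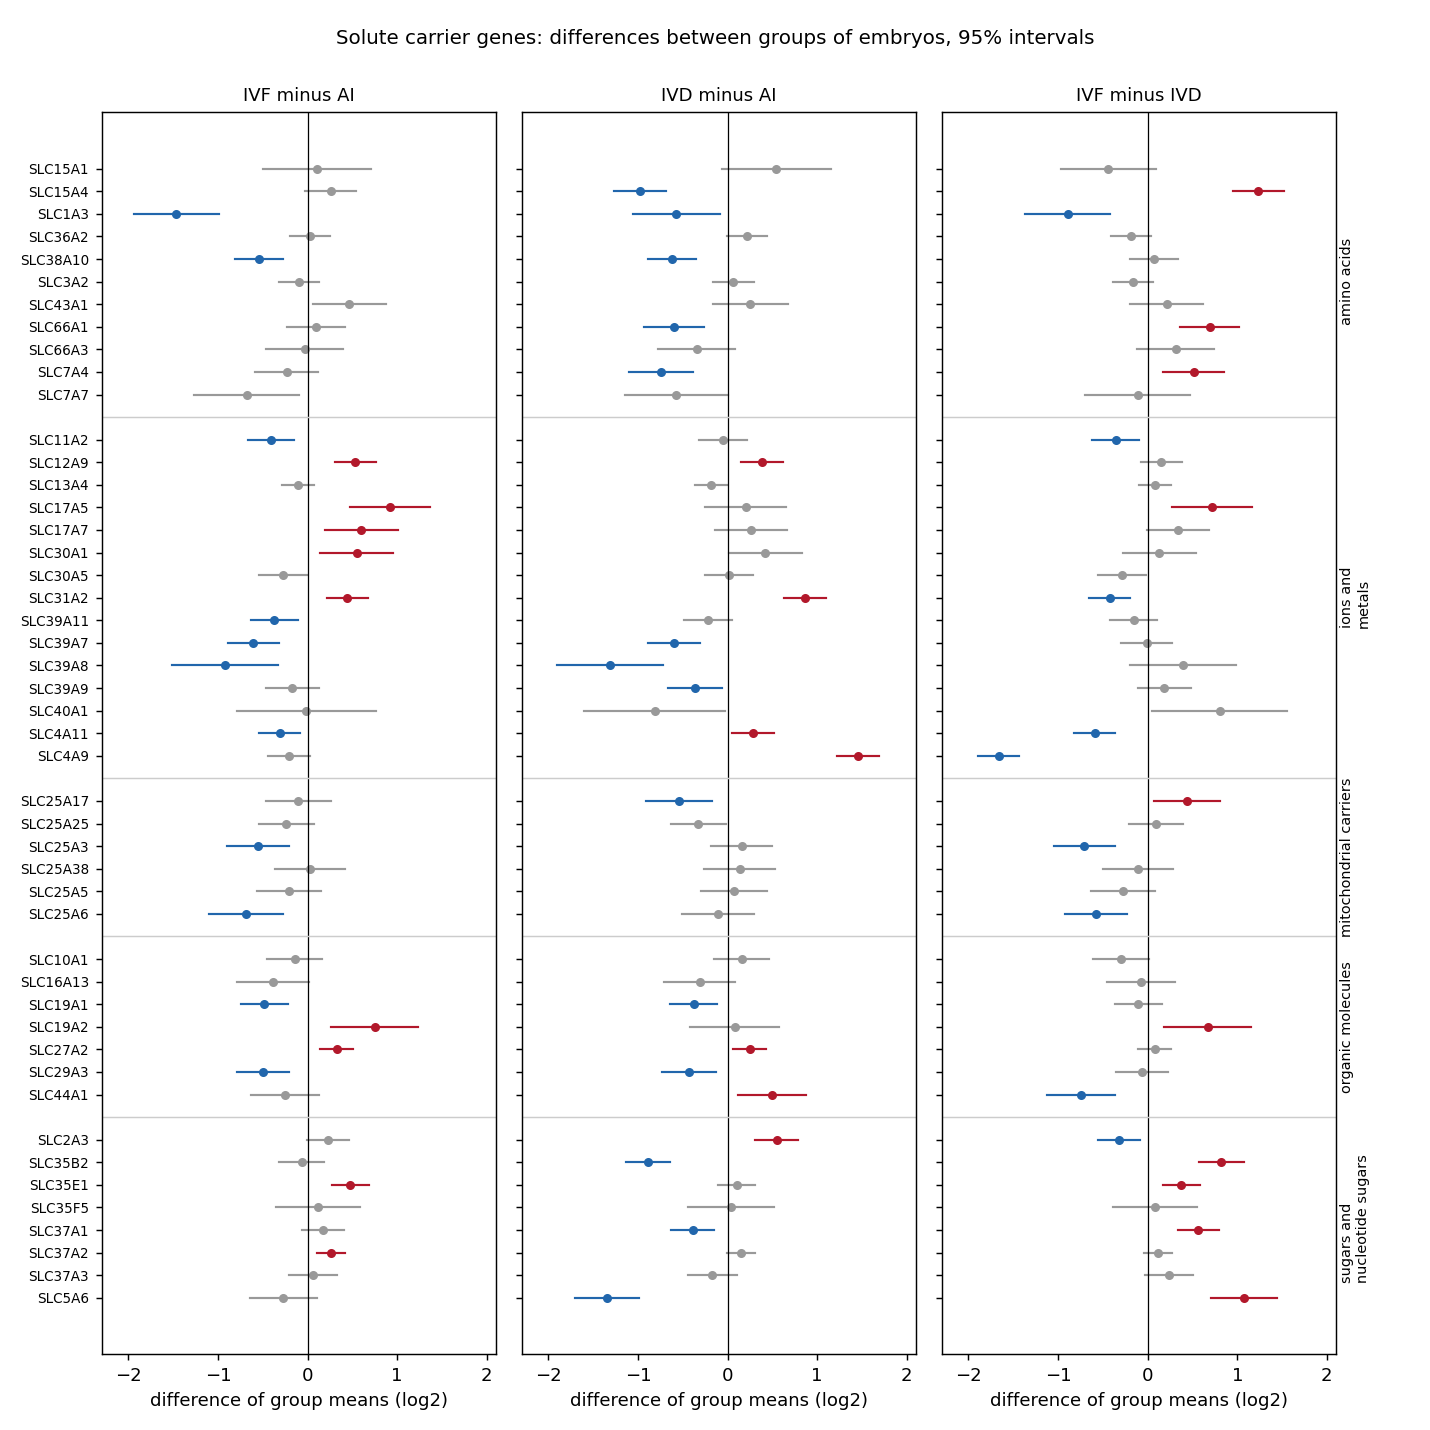
Difference between group means (log2, horizontal axis) with its 95% interval for each of the 47 tested solute carrier genes, by class, for IVF minus AI, IVD minus AI and IVF minus IVD. Red marks genes higher and blue genes lower at an adjusted p under 0.05, and grey marks the others; SLC4A9 stands farthest from 0 in IVF minus IVD, and no amino acid carrier is higher in IVD than in AI.

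Of 11 amino acid and peptide carriers, 5 were lower and none higher in IVD than in AI, with a median difference of -0.57. That share of calls, 45.5%, is close to the 46.5% of all features. In IVF 2 were lower and none higher than in AI (18.2% called, against 37.7% of all features), and 3 were higher and 1 lower than in IVD (36.4%, against 47.6%). The 5 lower genes of IVD include carriers of the lysosome (SLC15A4, SLC66A1), the glutamate carrier SLC1A3 and members of the glutamine and cationic amino acid families (SLC38A10, SLC7A4). Without centring, SLC15A4 alone of these 5 passed in IVD minus AI, while the others had differences of -0.32 to -0.50.

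SLC15A4 exports histidine and short peptides from lysosomes. Its ratio ran from 0.59 through a median of 1.46 to 2.02 in AI, from -0.30 through 0.40 to 1.05 in IVD and from 0.68 through 1.71 to 2.09 in IVF. IVD embryos lay low, 9 of 14 of them below every AI embryo, and 14 of 15 IVF embryos lay above every IVD embryo. The difference was -0.98 ± 0.14 for IVD minus AI, or 1.97-fold (limma adjusted p = 3.66e-07), and 1.24 ± 0.14 for IVF minus IVD, or 2.35-fold (adjusted p = 1.38e-09). IVF and AI differed by 0.26 ± 0.14 (adjusted p = 0.14). Its 2 clones gave -1.02 and -0.92 for IVD minus AI, and 1.34 and 1.13 for IVF minus IVD.

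SLC1A3, also called GLAST, takes up glutamate and aspartate with sodium. Ratios ran from -2.61 through -1.39 to -0.55 in AI, from -3.51 through -1.70 to -0.92 in IVD and from -3.74 through -2.80 to -1.80 in IVF. IVF embryos lay lowest, with 9 of 15 below every AI embryo. The difference for IVF minus AI was -1.47 ± 0.24, or 2.76-fold (limma adjusted p = 5.13e-06), which was the lowest of the solute carriers in that comparison and was -1.53 with the dye-bias cluster as a block (adjusted p = 0.00755). IVF lay below IVD by -0.89 ± 0.24 (adjusted p = 0.00171). IVD lay below AI by -0.57 ± 0.24 (adjusted p = 0.0468), a call lost in 5 alternatives, among them embryos 12_1 to 12_4 averaged (-0.60, adjusted p = 0.0501).

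SLC66A1 exports cationic amino acids from lysosomes and was lower in IVD than in AI by -0.60 ± 0.16 (limma adjusted p = 0.00272) and higher in IVF than in IVD by 0.69 ± 0.16 (adjusted p = 0.000468), the latter 0.45 without centring (adjusted p = 0.0871). Its ratios ran from -0.23 to 1.09 in AI, from -0.86 to 0.75 in IVD and from -0.10 to 1.59 in IVF, with medians of 0.64, 0.01 and 0.60. The groups overlapped broadly, and only 5 IVD embryos lay below the AI range. SLC7A4, an orphan member of the cationic amino acid family, had medians of 0.66 in 13 AI, -0.15 in 14 IVD and 0.50 in 15 IVF embryos, within ranges of 0.06 to 1.24, -0.78 to 0.64 and -0.997 to 1.26. It was lower in IVD than in AI by -0.75 ± 0.18 (adjusted p = 0.000624) and higher in IVF than in IVD by 0.51 ± 0.17 (adjusted p = 0.0115). Their size varied with the dye. Arrays with the embryo in Cy3 gave -0.33 and 0.04, neither past the threshold, and those with the embryo in Cy5 gave -1.17 and 0.99. The cause was not tested.

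SLC38A10 belongs to the family of sodium-coupled neutral amino acid carriers that take up glutamine. Medians were -0.77 in AI, -1.34 in IVD and -1.40 in 13 IVF embryos, within ranges of -1.60 to 0.10, -1.77 to -1.0005 and -1.71 to -0.43. AI embryos lay higher on average but covered most of the range of the others. IVD lay below AI by -0.62 ± 0.13 (limma adjusted p = 0.00016) and IVF below AI by -0.55 ± 0.13 (adjusted p = 0.00131). Arrays with the embryo in Cy3 gave -0.20 for IVD minus AI (adjusted p = 0.252).

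The other 6 amino acid and peptide genes passed in none of the 3 comparisons. SLC3A2 is the heavy chain of the heteromeric carriers, and its differences of -0.10, 0.06 and -0.16 for IVF minus AI, IVD minus AI and IVF minus IVD had 95% intervals that stayed within -0.38 and 0.29. SLC7A7, a light chain that pairs with it, had differences of -0.68 ± 0.29, -0.57 ± 0.29 and -0.11 ± 0.29, the lowest adjusted p being 0.0604. SLC43A1, a carrier of large neutral amino acids, had 0.47 ± 0.20 for IVF minus AI (adjusted p = 0.0658). SLC15A1, the peptide carrier of the intestine, had 0.54 ± 0.30 for IVD minus AI over 9 AI embryos (adjusted p = 0.139), and the proton-coupled carrier SLC36A2 had 0.21 ± 0.11 over 12 embryos of each group (adjusted p = 0.11). SLC66A3, of the same family as SLC66A1, differed by -0.03, -0.35 and 0.32.

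**Figure D2:**
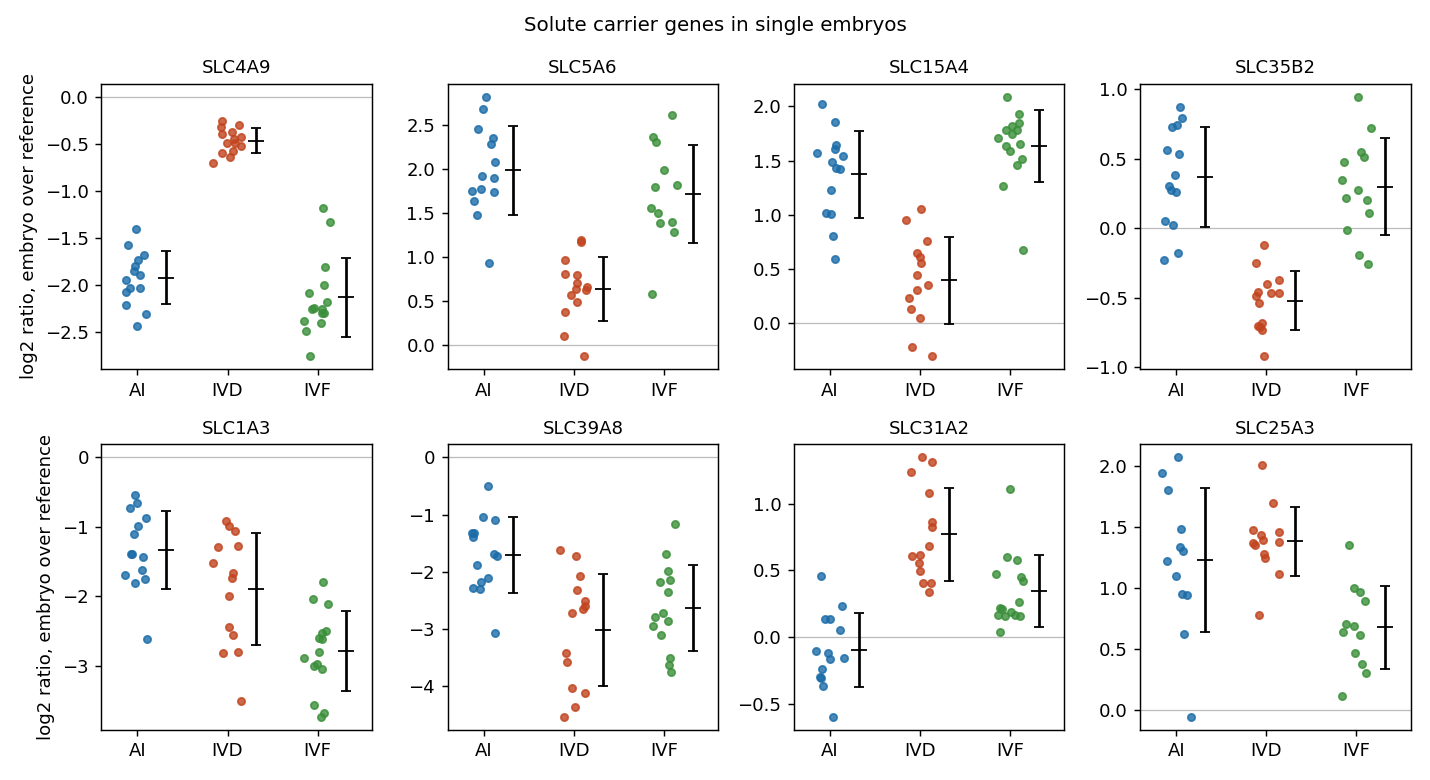
Log2 ratio of embryo over reference (vertical axis) in each AI, IVD and IVF embryo for 8 solute carrier genes; each point is an embryo, and the bar beside it shows the group mean and SD. IVD embryos stand clear of both other groups for SLC4A9, and SLC1A3 is lowest in IVF.

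Carriers of ions and metals went both ways in every comparison. Of 15 genes, 5 were higher and 5 lower in IVF than in AI, 4 higher and 3 lower in IVD than in AI, and 1 higher and 4 lower in IVF than in IVD. Shares of calls were 66.7%, 46.7% and 33.3%, against 37.7%, 46.5% and 47.6% of all features. SLC4A9 was the gene with the highest difference of the 47 between IVD and AI. The ZIP family, which brings zinc and other metals into the cytosol, had 4 measured members (SLC39A7, SLC39A8, SLC39A9, SLC39A11). In each of the comparisons with AI 3 of the 4 were lower and none was higher. Of all features, 17.7% were lower in IVF and 21% in IVD. With the dye-bias cluster as a block, SLC39A8, SLC39A7 and SLC39A11 did not pass for IVF minus AI (limma adjusted p = 0.168, 0.328 and 0.49).

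SLC4A9 is an anion exchanger of the bicarbonate transporter family. Its ratio ran from -2.43 through -1.92 to -1.41 in AI, from -0.71 through -0.47 to -0.26 in IVD and from -2.76 through -2.26 to -1.18 in IVF. All 14 IVD embryos lay above every AI and every IVF embryo, while AI and IVF overlapped. IVD minus AI was 1.46 ± 0.12, or 2.75-fold (limma adjusted p = 2.9e-13). It stayed between 1.38 and 1.71 over 11 alternatives, the dye-bias cluster as a block not among them. Of these, leaving out IVF embryo 7 could not move it. IVF minus IVD was -1.66 ± 0.12, or 3.17-fold (adjusted p = 3.84e-15). IVF and AI differed by -0.21 ± 0.12 (adjusted p = 0.155). SLC4A11, of the same family, also had its highest median in IVD, at 0.63 against 0.42 in AI and 0.11 in IVF, within ranges of 0.46 to 0.92, 0.06 to 0.60 and -1.05 to 0.74. It was lower in IVF than in IVD by -0.59 ± 0.11 (adjusted p = 3.03e-05), with 13 of 15 IVF embryos below every IVD embryo. Its smaller differences from AI, 0.28 ± 0.11 in IVD (adjusted p = 0.0408) and -0.31 ± 0.11 in IVF (adjusted p = 0.0275), were each lost in 6 alternatives. The latter was -0.05 with the dye-bias cluster as a block (adjusted p = 0.885) and -0.26 without IVF embryo 7 (adjusted p = 0.052).

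SLC39A8, or ZIP8, takes up zinc and manganese. Ratios ran from -3.07 through -1.71 to -0.49 in AI, from -4.54 through -2.69 to -1.62 in IVD and from -3.75 through -2.75 to -1.16 in 14 IVF embryos. AI embryos lay highest, and 6 IVD and 4 IVF embryos fell below the AI range. IVD minus AI was -1.31 ± 0.29, or 2.49-fold (limma adjusted p = 0.000326), and IVF minus AI -0.92 ± 0.29, or 1.90-fold (adjusted p = 0.0118). The latter call was lost without AI embryos H1, H3 and H5 (-0.72, adjusted p = 0.0634), whose values were among the highest.

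SLC39A7, or ZIP7, releases zinc from the endoplasmic reticulum. Its medians were -0.18 in AI, -0.71 in IVD and -0.74 in IVF, within ranges of -0.86 to 0.63, -1.57 to -0.19 and -1.47 to -0.18. IVD lay below AI by -0.60 ± 0.14 (limma adjusted p = 0.000798) and IVF by -0.61 ± 0.14 (adjusted p = 0.000867). Each of its 2 clones gave this sign, -0.70 and -0.51 in IVD and -0.71 and -0.49 in IVF. Without centring the IVD difference was -0.34 (adjusted p = 0.142). SLC39A11, a zinc carrier of the same family, was lower in IVF than in AI by -0.37 ± 0.13 (adjusted p = 0.0207), from -0.60 in Cy3 to -0.15 in Cy5, a call lost in 4 of 12 alternatives. SLC39A9 was lower in IVD than in AI by -0.36 ± 0.15 (adjusted p = 0.0436), a call lost in 7 of 11 alternatives.

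Of 2 measured zinc exporters, SLC30A1 passed in a single comparison and SLC30A5 in none. SLC30A1, the plasma membrane exporter that responds to zinc load, had medians of 0.71 in AI, 1.27 in IVD and 1.51 in 14 IVF embryos, within ranges of -0.75 to 1.94, 0.29 to 1.90 and 0.39 to 1.89. It was higher in IVF than in AI by 0.55 ± 0.20 (limma adjusted p = 0.0292), a call lost in 4 of 11 alternatives, among them arrays with the embryo in Cy3 (0.17, adjusted p = 0.545). AI embryos reached lower than the others and as high. For IVD minus AI the difference was 0.42 ± 0.20 (adjusted p = 0.0851). SLC30A5, which loads zinc into the secretory pathway, differed by -0.27, 0.01 and -0.29.

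Copper and iron carriers differed gene by gene. SLC31A2, or CTR2, a low-affinity copper transporter of endosomes and lysosomes, ran from -0.60 through -0.14 to 0.46 in AI, from 0.33 through 0.65 to 1.35 in IVD and from 0.04 through 0.22 to 1.11 in IVF. IVD embryos lay highest, with 11 of 14 above every AI embryo. IVD minus AI was 0.87 ± 0.12, or 1.82-fold (limma adjusted p = 7.55e-08), and IVF minus AI was 0.44 ± 0.11 (adjusted p = 0.00225; 0.31 and 0.0502 in Cy5). IVF lay below IVD by -0.42 ± 0.11 (adjusted p = 0.00219), a call lost on arrays with the embryo in Cy3 (-0.22, adjusted p = 0.174). The iron importer SLC11A2, or DMT1, had medians of 1.44 in AI, 1.47 in IVD and 1.04 in IVF. It was lower in IVF than in AI by -0.41 ± 0.13 (adjusted p = 0.0109), with 7 of 15 IVF embryos below every AI embryo, and lower than in IVD by -0.36 ± 0.13 (adjusted p = 0.0198). The former call was lost uncentred (adjusted p = 0.12) and in Cy5 (adjusted p = 0.0934); the latter was lost under quantile normalization (-0.24, adjusted p = 0.116) and in Cy5 (adjusted p = 0.073), while uncentred values gave -0.60. Ferroportin, SLC40A1, exports iron and was the most variable solute carrier in AI and IVD, with an SD of 1.19 over 13 AI embryos and 1.18 over IVD embryos. It ranged from -2.08 to 2.29 in AI, from -2.66 to 1.36 in IVD and from -0.79 to 1.63 in IVF. With that spread, differences of -0.01 ± 0.38, -0.82 ± 0.39 and 0.80 ± 0.38 did not pass.

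The SLC17 members were placed here by family, which began with phosphate carriers. SLC17A5, or sialin, exports sialic acid from lysosomes. It ran from -2.24 through -0.75 to 0.24 in AI, from -2.06 through -0.70 to 0.31 in IVD and from -1.60 through 0.17 to 0.78 in IVF. IVF embryos lay highest, 7 of 15 of them above every embryo of AI. IVF minus AI was 0.92 ± 0.22, or 1.89-fold (limma adjusted p = 0.00114), the highest of the solute carriers in that comparison, and IVF minus IVD was 0.72 ± 0.22 (adjusted p = 0.00681; 0.47 and 0.141 without centring). SLC17A7, a vesicular glutamate carrier, was higher in IVF than in AI by 0.60 ± 0.20 (adjusted p = 0.0172) over 8 AI and 14 IVF embryos, a call lost on arrays with the embryo in Cy3 (0.50, adjusted p = 0.0722). SLC12A9, an orphan of the cation-chloride cotransporter family, was higher in IVF than in AI by 0.53 ± 0.11 (adjusted p = 0.000285), with medians of 0.75 and 0.36. Its IVD minus AI difference of 0.38 ± 0.12 (adjusted p = 0.00644) came from arrays with the embryo in Cy3 (0.79), while those in Cy5 gave -0.03. The sulfate carrier SLC13A4 passed in no comparison, with differences of -0.11, -0.19 and 0.08.

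Of the mitochondrial carrier family, 2 of 6 measured genes were lower and none higher in IVF than in AI, 1 was lower and none higher in IVD than in AI, and 1 was higher and 2 lower in IVF than in IVD. With 6 genes these shares of calls are 33.3%, 16.7% and 50%, against 37.7%, 46.5% and 47.6% of all features. SLC25A3 brings phosphate into mitochondria for ATP synthesis. It ran from -0.06 through 1.26 to 2.07 in 12 AI embryos, from 0.78 through 1.37 to 2.01 in 13 IVD embryos and from 0.12 through 0.66 to 1.35 in 12 IVF embryos. IVF embryos lay low, and 8 of 12 were below every IVD embryo. IVF minus IVD was -0.71 ± 0.17, or 1.63-fold (limma adjusted p = 0.000628). It passed in 10 of 10 alternatives, of which leaving out AI embryos H1, H3 and H5 could not move it. The dye-bias cluster as a block was not run for this comparison. IVF minus AI was -0.55 ± 0.17 (adjusted p = 0.0105) but 0.03 with the dye-bias cluster as a block, and the call was also lost uncentred (adjusted p = 0.0531) and in Cy3 (adjusted p = 0.0565).

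SLC25A5 and SLC25A6 exchange ADP for ATP across the inner mitochondrial membrane, and their transcripts are alike, so a cDNA clone may read both. SLC25A5 had medians of 2.52, 2.54 and 2.23 in AI, IVD and IVF and passed in no comparison, with differences of -0.20, 0.07 and -0.28. SLC25A6 had medians of -0.16 in 7 AI, -0.39 in 14 IVD and -0.98 in 12 IVF embryos. It was lower in IVF than in AI by -0.69 ± 0.21 (limma adjusted p = 0.00853) and lower than in IVD by -0.58 ± 0.17 (adjusted p = 0.00519). The dyes gave opposite answers. For IVF minus IVD, arrays with the embryo in Cy3 gave -1.82 and those with the embryo in Cy5 gave 0.66, each past the threshold, and for IVF minus AI they gave -1.29 and -0.02. No direction can be taken from this gene.

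SLC25A17 belongs to the family but sits in the peroxisome, where it carries cofactors. It was lower in IVD than in AI by -0.54 ± 0.18 (limma adjusted p = 0.0142), with medians of 0.06 and 0.66, and 4 IVD embryos below the AI range, but without centring by -0.29 (adjusted p = 0.278). Its IVF minus IVD difference of 0.44 ± 0.18 (adjusted p = 0.0419) was lost in 6 alternatives, among them without IVF embryo 7 (0.42, adjusted p = 0.0577). SLC25A25, which exchanges ATP-magnesium for phosphate, and SLC25A38, the glycine carrier of haem synthesis, passed in no comparison. Their largest differences were -0.33 ± 0.15 (IVD minus AI, adjusted p = 0.0712) and 0.13 ± 0.20 (IVD minus AI, adjusted p = 0.602).

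**Figure D3:**
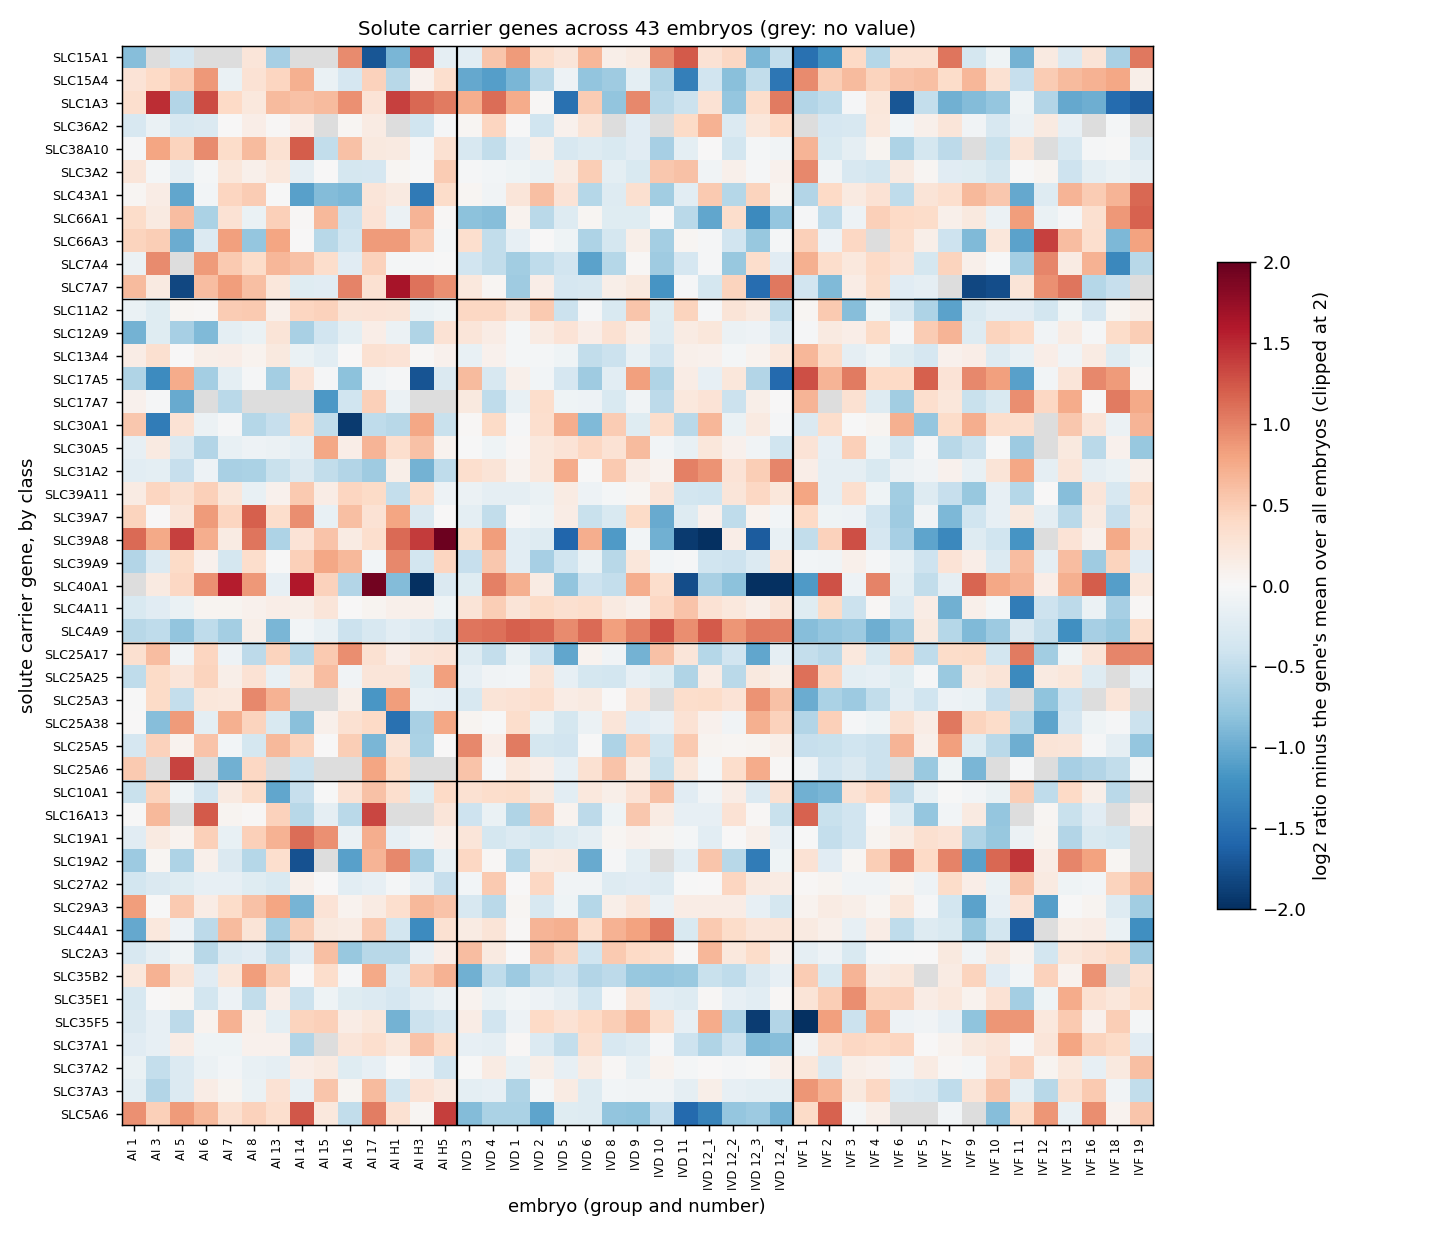
Log2 ratio minus the gene's mean over all embryos (colour, clipped at 2) for the 47 tested solute carrier genes, in rows by class from amino acids at the top to sugars at the bottom, across 43 embryos in columns by group; grey cells have no value. The IVD block stands out for SLC4A9 (red) and for SLC15A4, SLC35B2 and SLC5A6 (blue), and SLC40A1 varies within each group.

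Among carriers of sugars, nucleotide sugars and vitamins, SLC5A6 and SLC35B2 had the largest differences. Of 8 genes, 2 were higher and none lower in IVF than in AI, 1 was higher and 3 lower in IVD than in AI, and 4 were higher and 1 lower in IVF than in IVD. Shares of calls were 25%, 50% and 62.5%, against 37.7%, 46.5% and 47.6% of all features. SLC5A6, placed here by its family of sodium-coupled sugar carriers, takes up the vitamins biotin and pantothenate. It ran from 0.94 through 1.91 to 2.82 in AI, from -0.12 through 0.65 to 1.19 in IVD and from 0.58 through 1.68 to 2.61 in 12 IVF embryos. IVD embryos lay lowest, 11 of 14 of them below every AI embryo. IVD minus AI was -1.34 ± 0.18, or 2.54-fold (limma adjusted p = 6.8e-08), the lowest of the solute carriers, and -0.83 on arrays with the embryo in Cy3 (adjusted p = 0.00742). IVF minus IVD was 1.07 ± 0.18, or 2.1-fold (adjusted p = 6.4e-06), but 0.59 in Cy3 (adjusted p = 0.0571).

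SLC35B2 brings the sulfate donor PAPS into the Golgi for sulfation of glycans and proteins. It ran from -0.23 through 0.35 to 0.88 in AI, from -0.92 through -0.48 to -0.12 in IVD and from -0.25 through 0.27 to 0.95 in 13 IVF embryos. IVD embryos lay lowest, 13 of 14 of them below every AI embryo. The differences were -0.89 ± 0.12 for IVD minus AI, or 1.85-fold (limma adjusted p = 1.08e-07), and 0.82 ± 0.12 for IVF minus IVD, or 1.77-fold (adjusted p = 5.15e-07). Each passed in 10 of 10 alternatives, the dye-bias cluster as a block not among them. Leaving out IVF embryo 7 could not move the IVD minus AI difference. Leaving out AI embryos H1, H3 and H5 could not move the IVF minus IVD difference. IVF and AI differed by -0.07 ± 0.12 (adjusted p = 0.693).

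SLC2A3, or GLUT3, is a high-affinity glucose carrier. It ran from 1.32 through 1.83 to 2.68 in AI, from 1.68 through 2.42 to 2.74 in IVD and from 1.37 through 2.06 to 2.45 in IVF. The groups overlapped, with IVD embryos mostly in the upper part. IVD minus AI was 0.55 ± 0.12, or 1.46-fold (limma adjusted p = 0.000209), with 0.59 and 0.48 from its 2 clones. IVF minus IVD was -0.32 ± 0.12 (adjusted p = 0.0211), a call lost under quantile normalization (-0.13, adjusted p = 0.39) and in Cy3 (-0.14), while Cy5 and uncentred values gave -0.50 and -0.57. IVF minus AI was 0.23 ± 0.12 (adjusted p = 0.114).

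Of the SLC37 family, SLC37A1 and SLC37A2 exchange glucose 6-phosphate for phosphate at the endoplasmic reticulum, and SLC37A3 is placed here by family. SLC37A1 was lower in IVD than in AI by -0.39 ± 0.12 (limma adjusted p = 0.00578; 13 AI embryos) and higher in IVF than in IVD by 0.56 ± 0.11 (adjusted p = 6.16e-05), with medians of 0.34, -0.04 and 0.50 in AI, IVD and IVF. Uncentred, these were -0.12 and 0.32, neither past the threshold. SLC37A2 was higher in IVF than in AI by 0.26 ± 0.08 (adjusted p = 0.00644), a call lost in 4 of 11 alternatives, among them uncentred values (adjusted p = 0.168) and Cy3 (0.18, adjusted p = 0.15). SLC37A3 passed in no comparison, its 2 clones giving -0.02 and -0.33 for IVD minus AI. SLC35E1, an orphan of the nucleotide sugar family, was higher in IVF than in AI by 0.48 ± 0.10 (adjusted p = 0.000249), with 12 of 15 IVF embryos above every AI embryo and 1 below. It was higher in IVF than in IVD by 0.38 ± 0.10 (adjusted p = 0.00197), a call lost uncentred (0.13) and in Cy5 (0.27, adjusted p = 0.11). SLC35F5, another orphan, differed by 0.12, 0.03 and 0.08 and passed in no comparison.

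Carriers of other organic molecules split by gene. Of 7 genes, 2 were higher and 2 lower in IVF than in AI and in IVD than in AI, and 1 was higher and 1 lower in IVF than in IVD (57.1%, 57.1% and 28.6% called, against 37.7%, 46.5% and 47.6% of all features). SLC44A1 carries choline, a precursor of membrane phospholipid. It ran from -2.16 through -0.73 to -0.28 in AI, from -1.21 through -0.56 to 0.14 in IVD and from -2.56 through -1.13 to -0.74 in 14 IVF embryos. IVF embryos lay low, 6 of them below every IVD embryo. IVF minus IVD was -0.75 ± 0.19, or 1.68-fold (limma adjusted p = 0.00106), and IVD minus AI was 0.50 ± 0.19 (adjusted p = 0.027), a call lost in Cy5 (0.43, adjusted p = 0.0611) and without AI embryos H1, H3 and H5 (0.40, adjusted p = 0.0802).

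Both measured SLC19 vitamin carriers passed between IVF and AI, in opposite directions, where 37.7% of all features passed. With the dye-bias cluster as a block neither did. SLC19A2, the thiamine carrier, was higher in IVF than in AI by 0.75 ± 0.24 (limma adjusted p = 0.0135; 14 and 13 embryos), though by 0.21 with the dye-bias cluster as a block, and higher in IVF than in IVD by 0.67 ± 0.24 (adjusted p = 0.0204; 0.37 uncentred and 0.30 in Cy3). SLC19A1, the reduced folate carrier, was lower than in AI by -0.48 ± 0.13 in IVF (adjusted p = 0.00345, 14 embryos). That call was lost with the dye-bias cluster as a block (-0.47, adjusted p = 0.33) and with the embryo number as a block. In IVD it was lower than in AI by -0.38 ± 0.13 (adjusted p = 0.016), but by -0.12 uncentred. Medians of SLC19A1 were -0.85 in AI, -1.08 in IVD and -1.19 in IVF, and 7 IVF embryos lay below the AI range.

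SLC27A2, which takes up and activates very long chain fatty acids, was higher than in AI by 0.32 ± 0.09 in IVF (limma adjusted p = 0.00463) and by 0.25 ± 0.09 in IVD (adjusted p = 0.0266), calls that were each lost in 4 alternatives. SLC29A3, a nucleoside carrier of lysosomes and mitochondria, was lower than in AI by -0.50 ± 0.15 in IVF (adjusted p = 0.00669) and by -0.43 ± 0.15 in IVD (adjusted p = 0.0157). Its 2 clones differed: one gave -1.05 and -0.70 and the other 0.05 and -0.17, so the mean stands for neither. Without centring these calls of the mean were lost (-0.49 and -0.18, adjusted p = 0.0643 and 0.485). The bile acid carrier SLC10A1 passed in no comparison (-0.15, 0.15 and -0.30), nor did SLC16A13 of the monocarboxylate family (-0.39, -0.31 and -0.08).

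Partners of these carriers were read from lists that are separate from them. BSG, the glycoprotein that brings monocarboxylate carriers to the surface, was lower in IVD than in AI by -0.83 ± 0.14 (limma adjusted p = 3.44e-06), with 12 of 14 IVD embryos below every AI embryo, and higher in IVF than in IVD by 0.62 ± 0.13 (adjusted p = 0.000169). ATP1B3, the only kept subunit of 11 of the sodium-potassium ATPase list, was lower than in AI by -0.51 ± 0.13 in IVF (adjusted p = 0.00239) and by -0.65 ± 0.13 in IVD (adjusted p = 0.000108). The vacuolar proton ATPase acidifies lysosomes and so drives their carriers. Of its 12 kept genes of 17, 2 were higher and 5 lower in IVF than in AI, 2 higher and 4 lower in IVD than in AI, and 4 higher and 5 lower in IVF than in IVD. Shares of calls were 58.3%, 50% and 75%, against 37.7%, 46.5% and 47.6% of all features. ATP6V0D1 was higher by 0.91 ± 0.11 (adjusted p = 5.44e-09) and ATP6V1D lower by -0.84 ± 0.10 (adjusted p = 2.44e-09) in IVF than in IVD.

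The lysosomal machinery that senses amino acids for mTORC1 had 8 kept genes of 19. In IVD 3 were higher and 1 lower than in AI, among them the Rag GTPase RRAGD at 0.96 ± 0.25 (limma adjusted p = 0.002) and the Ragulator subunit LAMTOR5 at 0.92 ± 0.13 (adjusted p = 1.46e-07). In IVF 1 was higher and 1 lower than in AI, the latter LAMTOR2 at -1.03 ± 0.14 (adjusted p = 4.95e-07), and 3 were lower and none higher than in IVD. Shares of calls were 50% for IVD minus AI, 25% for IVF minus AI and 37.5% for IVF minus IVD, near or below those of all features (46.5%, 37.7% and 47.6%). Of 6 kept genes of 7 for outer membrane channels and pyruvate entry of mitochondria, 1 was higher in IVF than in AI (VDAC1, 0.55 ± 0.17, adjusted p = 0.0119), 1 higher in IVD than in AI (VDAC3, 0.88 ± 0.18, adjusted p = 0.000103), and 1 higher and 3 lower in IVF than in IVD. Metal storage and uptake had 5 kept genes of 18, with 1 higher and 1 lower in IVF than in AI, 1 higher and none lower in IVD than in AI, and 1 of each between IVF and IVD; the ferritin autophagy receptor NCOA4 was higher than in AI by 0.46 ± 0.12 in IVD (adjusted p = 0.00229) and 0.39 ± 0.12 in IVF (adjusted p = 0.0108). Of 3 kept aquaporins of 9, 2 were lower in IVF than in AI and 2 lower in IVF than in IVD, AQP3 in both cases (-0.38 ± 0.12 and -0.56 ± 0.12, adjusted p = 0.014 and 0.000274), and AQP1 was higher in IVD than in AI by 0.27 ± 0.09 (adjusted p = 0.0153). For IVF minus AI, IVD minus AI and IVF minus IVD, shares of calls were 16.7%, 16.7% and 66.7% for the mitochondrial channels, 40%, 20% and 40% for metal storage and uptake, and 66.7%, 33.3% and 66.7% for the aquaporins, lists of few genes, against 37.7%, 46.5% and 47.6% of all features. The alternatives were run on the solute carriers and not on these lists.

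Embryos of a group also varied in these genes. The SD between embryos had a median over the 47 genes of 0.44 in AI, 0.33 in IVD and 0.45 in IVF, close to the 0.40, 0.33 and 0.42 of all features. The median ratio over an embryo's solute carrier genes ran from -0.15 to 0.33 in AI, from -0.33 to -0.01 in IVD and from -0.06 to 0.29 in IVF, over 41 to 47 genes an embryo. Group means lay above 0 for 26 genes in AI, 21 in IVD and 27 in IVF. Their medians over the 47 genes were 0.23, -0.07 and 0.28, against -0.07, -0.07 and -0.06 over all features. These levels depend on the centring. Of the 60 calls in the 3 comparisons, 15 passed in every alternative run for their comparison. Those of SLC4A9 and SLC15A4 between IVD and either other group were among them. Some alternatives left out or averaged embryos of a group outside a comparison, which could not move its difference. Comparisons with IVD were not run with the dye-bias cluster as a block, under which 1 of 20 IVF minus AI calls passed. All 14 IVD embryos lay in a cluster with 13 AI and 2 IVF embryos. Most IVF embryos lay in other clusters, so IVF minus IVD differences cannot be told apart from dye bias, which was not tested.

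The other 19 solute carrier genes had too few embryos with a value on both arrays, and are described with no test. Most were measured in IVD, whose arrays had the fewest rows without a value, and seldom elsewhere. The anion exchanger SLC4A3 had a value in 14 of 14 IVD embryos and in no AI or IVF embryo, and the Golgi carrier SLC35A3 in 12 IVD embryos alone. The sulfate carrier SLC26A2, by contrast, had a value in 10 AI and 14 IVD embryos but in 0 of 15 IVF embryos, with means of 0.44 and 0.50. SLC11A1, a metal carrier of phagocytes, was measured in 1 AI, 13 IVD and 14 IVF embryos, and SLC25A20, the carnitine carrier of fatty acid oxidation, in 9, 14 and 3. SLC46A3 had a value in no embryo. The sources used here do not give the rule that left a spot empty, so a missing value cannot be read as a low ratio.

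**Figure D4:**
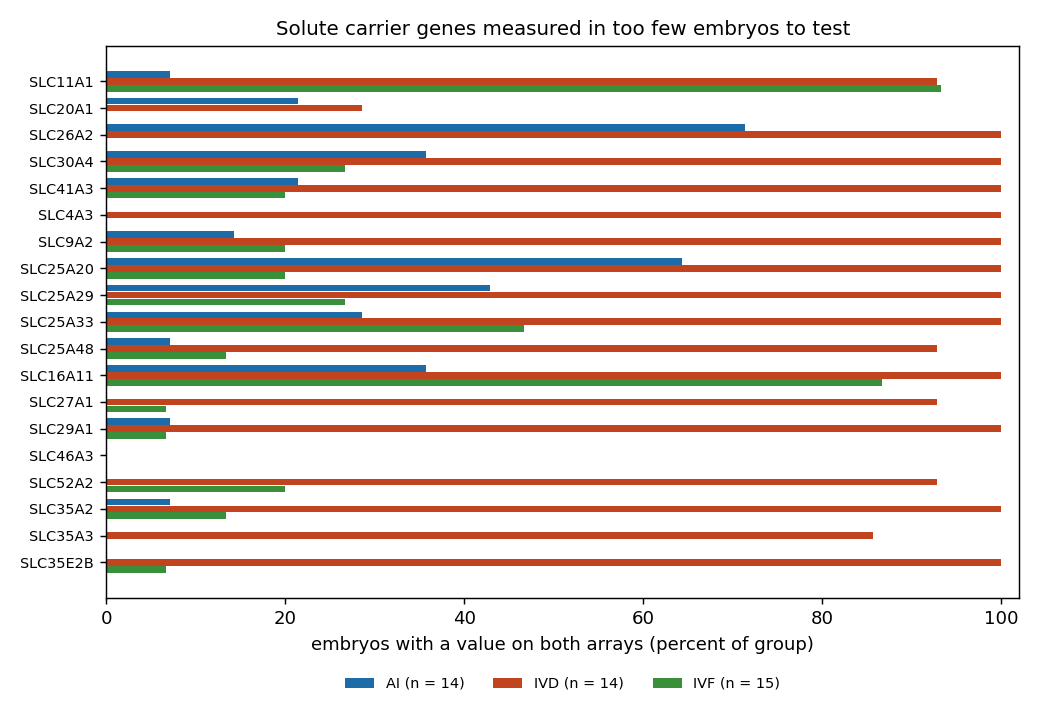
Share of embryos of each group with a value on both arrays (percent, horizontal axis) for the 19 solute carrier genes that were not tested. IVD bars are the longest or equal to the longest for most genes, SLC26A2 has no IVF bar, and SLC46A3 has no bar at all.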

How the data were processed

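The deposited table holds log2 ratios of 16416 rows on 86 arrays, made by the authors. The sources used here do not state image analysis or normalization. Missing cells were 20.1% of the table, and 16 cells at a common ceiling of 16.61 were set to missing. Array medians ran from -2.22 to 1.06. The median over the 5558 rows present on all arrays was subtracted from each array. Ratios were turned in sign where the embryo carried Cy3, and the mean of 2 arrays gave 1 value per embryo, the replicate. Rows were kept with both arrays measured in at least 7 embryos of every group (10757 rows), and those sharing a single symbol were averaged, which left 6278 features. Group means were compared over all 43 embryos with limma 3.58.1 in R 4.3.3 (lmFit, eBayes, two-sided, Benjamini-Hochberg, threshold 0.05). The fit was tested on simulated data with independent noise for each embryo. The simulated embryos had no dye bias and no shared origins, so that test says nothing about either. The number of arrays limits the precision. Figures used matplotlib 3.10.9. Any kept member could be named; full statistics were for up to 4 genes of a class past the threshold per comparison, and for up to 2 genes of each partner list. The members, classes and lists were chosen with earlier results of these data known. Embryo numbers shared between groups were not used to pair embryos in the main fit. The median correlation of same-numbered embryos' deviations was -0.05 for IVF with AI, 0.0027 for IVD with AI and 0.0092 for IVF with IVD. In the last, 2 pairs were over 0.1. With only 7, 5 and 9 shared numbers, these correlations cannot decide whether a number marks a shared origin. Alternatives covered centring, filters, dyes, rows per gene, left-out embryos and blocks.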

Additional observations from a re-analysis of the deposited data

How the results depend on the processing

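Counts of solute carrier genes past the threshold stayed within 1.5 times the main count except as follows. Values as deposited, with no centring, gave 11 for IVF minus AI (5 lower), 12 higher and 4 lower for IVD minus AI, and 3 higher and 14 lower for IVF minus IVD. Keeping rows measured in every embryo, which left 24 solute carrier genes, gave 11 for IVF minus AI (5 higher, 6 lower), 11 for IVD minus AI (6 lower), 11 for IVF minus IVD (5 higher) and 16 by the F-test. Arrays with the embryo in Cy5 alone gave 4 higher for IVD minus AI. The embryo number as a replicate block gave 12 for IVF minus AI (5 lower) and 13 for IVD minus AI (8 lower); 1 of 7, 1 of 5 and 1 of 9 shared numbers correlated best with their own number. The dye-bias cluster as a block, run for IVF minus AI alone, gave 1, with 0 higher and 1 lower. The sign turned for SLC12A9 in IVD minus AI (-0.026) and SLC25A6 in IVF minus IVD (0.66), both in Cy5 alone, and for SLC25A3 in IVF minus AI (0.027) with the dye-bias block; the cause was not tested. Leaving out IVF embryo 7, chosen after seeing the data, gave 19, 21 and 18, and 29 by the F-test. Of 60 calls of single genes, 15 passed under every alternative run for their comparison. Some alternatives changed only embryos outside a comparison and could not move its difference.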
